A study of Rattus norvegicus with 26 samples.

Results

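Transcript levels in the subacutely injured rat spinal cord were compared with those in intact cord, using the 3 libraries labelled sub-SCI and the 4 labelled Intact out of 26 libraries in 8 groups. All genes that passed the expression filter, 17990 of the 32883 in the count table, were tested. The other groups of the series were injured rats taken 1, 2 or 4 weeks after intrathecal injection of human umbilical cord mesenchymal stem cells (+MSC) or of vehicle (+PBS), and of these the group labelled +PBS-1w was used here for a single comparison. All rats were wild type female Sprague-Dawley rats of 250 g, labelled as postnatal day 70. In sub-SCI the cord was compressed for 1 min at T10 with an aneurysm clip of 60 g closing force and taken 7 days later, the time at which transplantation was performed in the other groups. +PBS-1w rats had the same injury and were taken 1 week after the vehicle injection. The Intact group is labelled untreated, and the study describes it as intact or sham rats without saying which library is which. The methods give rats daily cyclosporin A, without saying whether the Intact or sub-SCI rats were included. RNA came from 5 mm segments centered at the lesion, or from comparable segments of intact cord, so each library mixes all cells of the segment, and the libraries of a group are described as biological replicates.

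As background, the spinal cord holds motor neurons, inhibitory and excitatory interneurons, myelinating oligodendrocytes, astrocytes, microglia, vessels and the ciliated ependymal cells of the central canal. After compression, neurons and oligodendrocytes die at the lesion, microglia and blood-derived macrophages take up myelin and cell debris, astrocytes become reactive around the lesion, and fibroblast-like cells deposit collagen-rich matrix in its core. The subacute stage is the time when these cell responses overlap, before the scar has matured.

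Total counts per library were 19496602 to 26813098 in Intact (median 22923781) and 27697134 to 35403139 in sub-SCI (median 30345225). The share of counts on the 13 mitochondrial genes was 6.57% to 8.44% in Intact and 4.55% to 5.42% in sub-SCI, and the 2 ranges did not overlap. The 7 libraries separated by group along the first principal component of their log2 CPM, which carried 80.37% of the variance. On it the Intact libraries lay between -108.24 and -69.48, sub-SCI replicates 1 and 2 at 98.60 and 101.63, and sub-SCI replicate 3 farther out at 142.89. Calls of named genes and counts of lists that leaving out sub-SCI replicate 3 ended or moved by over 1.5 times are therefore given with that value. The labelled tissue was checked against its markers: neuron, oligodendrocyte and astrocyte markers were present in every library, while markers of dorsal root ganglion neurons summed to 0.0022% to 0.003% of counts in Intact and 0.0013% to 0.0015% in sub-SCI. The Intact libraries differed among themselves in markers of tissue around the cord, the Schwann cell list taking 0.019% of counts in replicate 1 and 0.019% to 0.168% over all 4, and the skeletal muscle list 0.0423% in replicate 4 against 0.00146% to 0.00211% in the other 3.

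Of the 17990 genes, 2981 (16.6%) rose in sub-SCI and 3151 (17.5%) fell, where a call required a log2 fold change beyond 1 in either direction together with a Benjamini-Hochberg adjusted p below 0.01 in edgeR's quasi-likelihood test. These genes are called higher or lower below, log2 fold changes are sub-SCI relative to Intact and stand alone in parentheses where no other value is given, and the median over all genes tested was -0.02. Without sub-SCI replicate 3 the counts were 2599 higher and 2610 lower, of which 2563 and 2554 were also called with it. Because whole segments were sequenced, a fall can reflect fewer cells of a type or less RNA per cell, and a rise more cells or more RNA per cell, and these cannot be told apart here. The lists of genes used below are described by how many members were called and by their median, to be read against the shares of all genes. Some members have close copies in the genome (ribosomal proteins, hemoglobins, RT1, Ifitm, Mmp, S100 and C4 genes), and reads may have been divided among the copies.

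**Figure D1:**
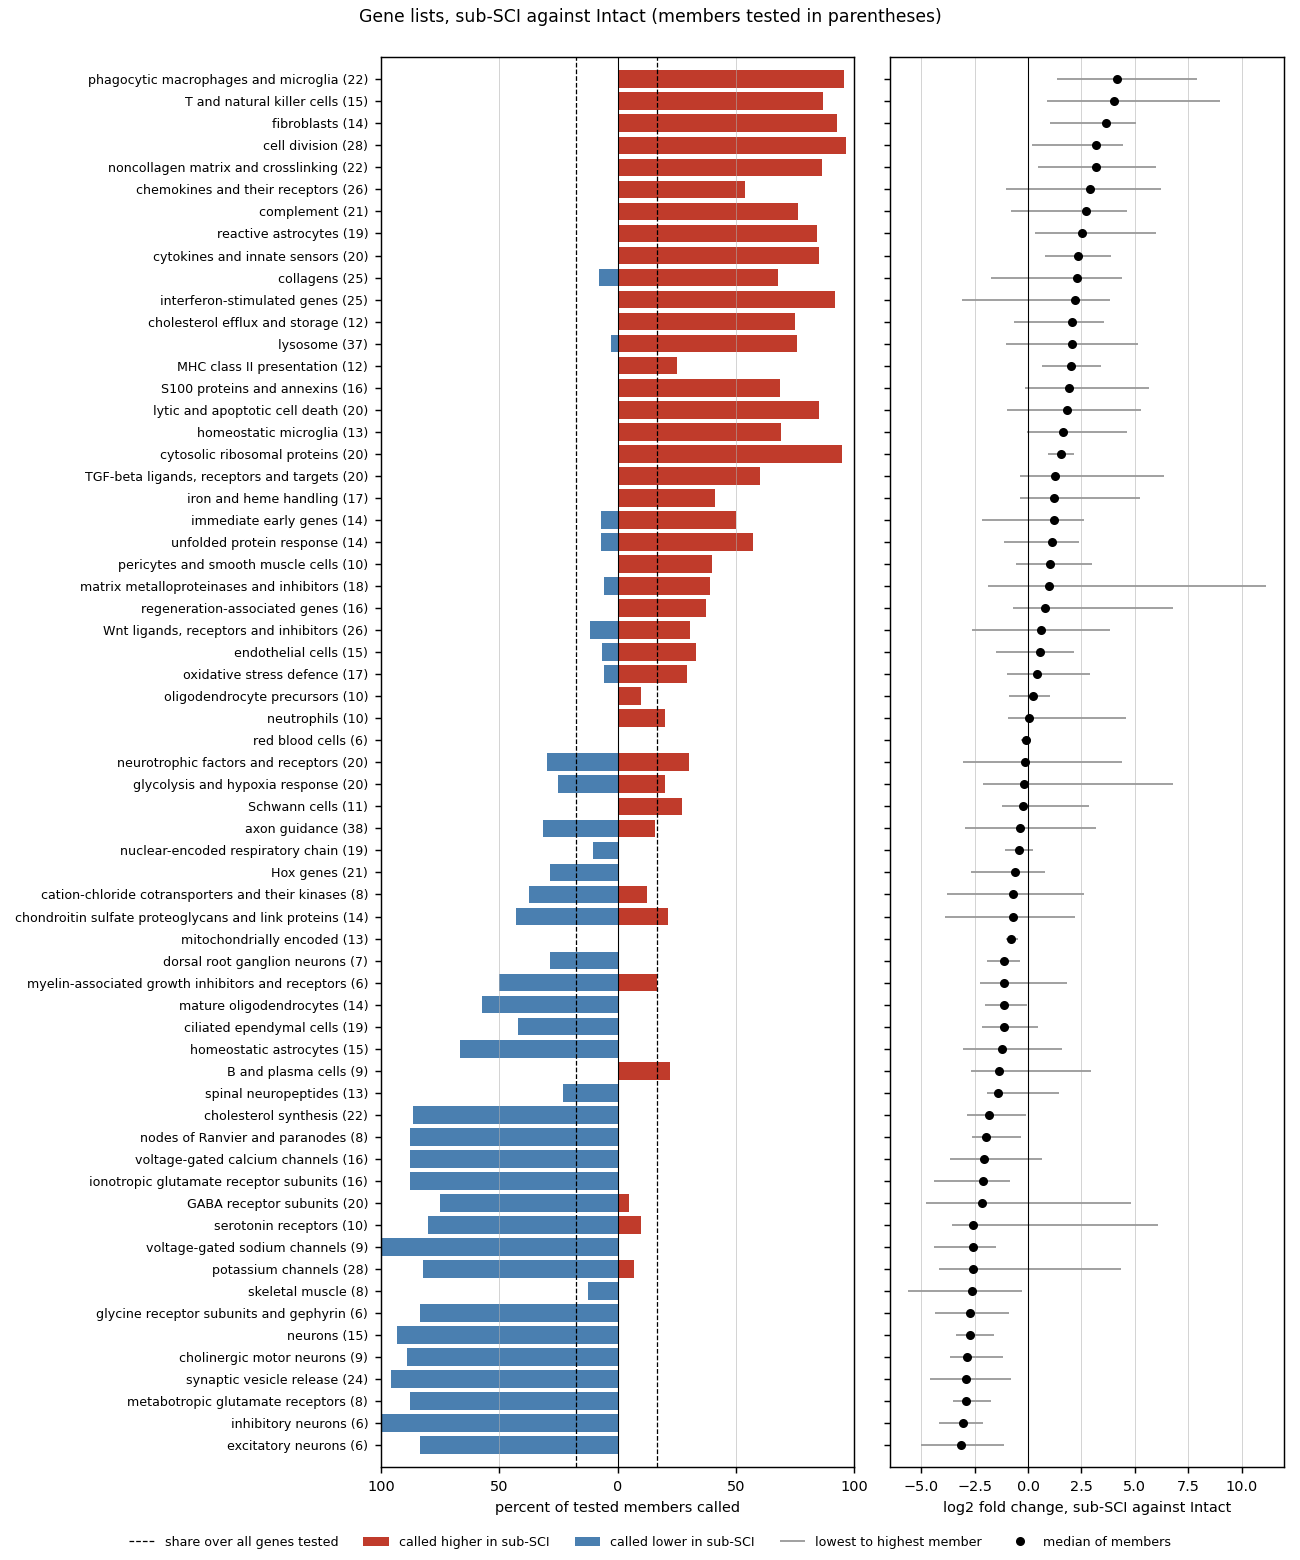
Gene lists in sub-SCI against Intact, ordered by median. Left, percent of tested members called higher (red, to the right) or lower (blue, to the left), with dashed lines at the shares over all genes tested, 16.6% and 17.5%; right, median log2 fold change (dots) and lowest to highest member (lines). Phagocyte, T cell, fibroblast and cell division lists lie at the top, and lists of neurons, transmitter receptors and ion channels at the bottom.

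The largest increases among genes averaging at least 10 CPM (TMM-normalized counts per 1000000) in sub-SCI included macrophage genes, metalloproteinases and both chains of CD8. Mmp12, the macrophage metalloelastase, had 3 counts in all over the 4 Intact libraries and 8058 over the 3 sub-SCI libraries, a ratio of 2649 per total count (95% exact interval 906 to 12848, counting error only). Fcrl2, an Fc receptor-like gene, was at 0.164, 0.458, 0.601 and 0.304 CPM in Intact and at 908, 523 and 349 CPM in sub-SCI (log2 fold change 10.57, SE 0.82, adjusted p = 8.94e-10). Cd8a, the alpha chain of the CD8 co-receptor, was at 0.164, 0.366, 0.185 and 0.532 CPM against 178, 159 and 168 CPM (log2 fold change 9.0, SE 0.53, adjusted p = 2.52e-11). In all 10 genes of this set the lowest sub-SCI library lay far above the highest Intact library. The others were Mmp7 (matrilysin, 8.62 on the log2 scale, with no count in Intact replicates 1 and 2), Ifitm1 (8.59, an interferon-induced membrane protein), Cd8b (8.3), Gpnmb (7.91), Lilrb4 (7.51, a leukocyte Ig-like receptor), Cd68 (7.41) and Siglec1 (7.04, the sialic acid-binding macrophage receptor).

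The largest decreases among genes averaging at least 10 CPM in Intact were in neuronal genes. Ndst4, a heparan sulfate sulfotransferase, was at 10.5, 8.704, 12.95 and 8.36 CPM in Intact and at 0.349, 0.362 and 0.102 CPM in sub-SCI (log2 fold change -5.19, SE 0.39, adjusted p = 5.07e-10). Slc17a7, which encodes the vesicular glutamate transporter VGLUT1, was at 9.22, 23.6, 22.1 and 27.3 CPM against 1.45, 0.0362 and 0.339 CPM (log2 fold change -5.02, SE 1.04, adjusted p = 0.000259). The groups did not overlap for either gene, and Slc17a7 varied more than Ndst4 within both groups. Gabrb2, a subunit of the GABA-A receptor, followed at -4.78, with Lingo4 (-4.77), Zdhhc22 (-4.68), Caln1 (-4.65), Creg2 (-4.63), Atp8a2 (-4.62), the synaptic vesicle gene Sv2c (-4.61) and Syt2 (-4.44), the calcium sensor of fast transmitter release. Among the sub-SCI libraries replicate 3 was the lowest in all of these genes except Slc17a7, for which it was replicate 2.

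**Figure D2:**
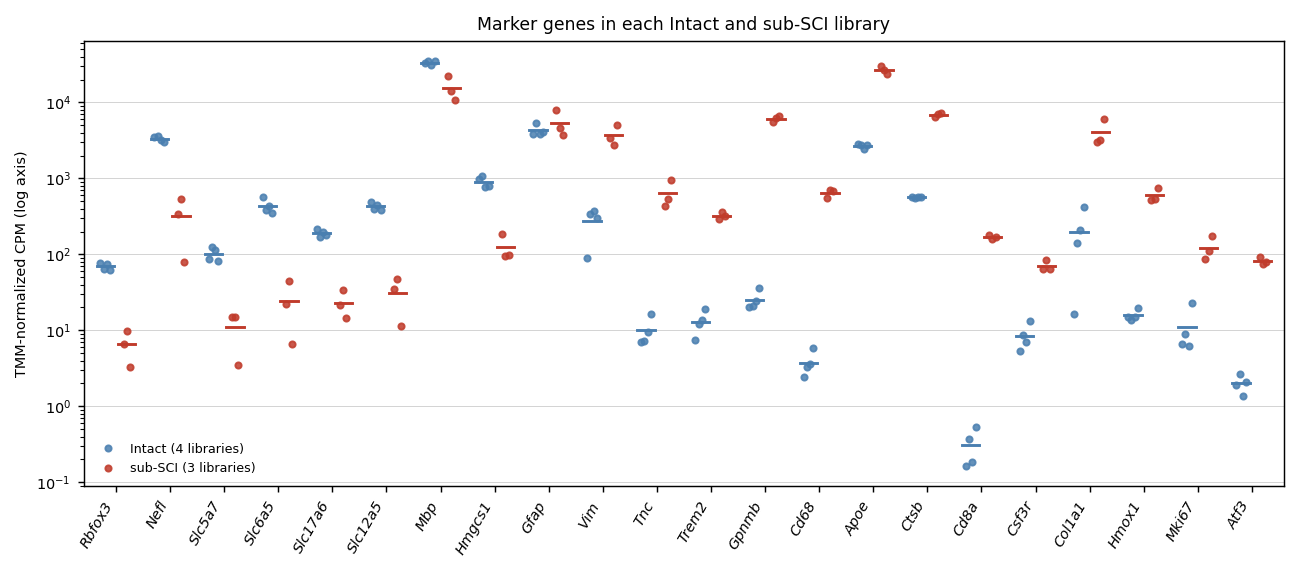
TMM-normalized CPM (log axis) of 22 marker genes in each of the 4 Intact libraries (blue) and 3 sub-SCI libraries (red), with horizontal lines at the group means. For Gfap the groups overlap, whereas for each other gene shown all sub-SCI libraries lie on one side of all Intact libraries.

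Pan-neuronal genes fell. Of 15 neuron markers, 14 were called lower and 0 higher (median -2.71), and their summed counts took 1.41% to 1.6% of the library in Intact and 0.0837% to 0.337% in sub-SCI. Rbfox3, which encodes the nuclear protein NeuN, was at 76.1, 64.05, 74.6 and 62.8 CPM in Intact and at 6.54, 9.895 and 3.32 CPM in sub-SCI (log2 fold change -3.4, SE 0.4, adjusted p = 2.48e-07). Nefl, the light neurofilament chain of axons, was at 3502, 3622, 3229.6 and 2976 CPM against 336, 536 and 78.4 CPM (log2 fold change -3.39, SE 0.54, adjusted p = 1.35e-05). For both genes, and for Nefm (-3.27, SE 0.59, adjusted p = 5.58e-05), every sub-SCI library lay below every Intact library and sub-SCI replicate 3 lay lowest. The neuron marker not called was Eno2 (-2.05, SE 0.85, adjusted p = 0.0418), an enolase, in a list where all fold changes were negative.

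Genes that mark each transmitter class fell as well. Among 9 genes of cholinergic motor neurons, 8 were called lower (median -2.87). Slc5a7, the choline transporter, was at 86.7, 127, 115 and 82.7 CPM in Intact and 14.9, 15.01 and 3.53 CPM in sub-SCI (log2 fold change -3.2, SE 0.42, adjusted p = 1.16e-06). Ache, acetylcholinesterase, was at 184 to 214 CPM in Intact and 10.2 to 34.6 in sub-SCI (-3.02), and Esrrg, an orphan nuclear receptor of gamma motor neurons, changed by -3.68. Prph, the intermediate filament peripherin, was at 161 to 224 CPM in Intact and 34.7 to 112 in sub-SCI and was not called (-1.17, SE 0.55, adjusted p = 0.0724). All 6 inhibitory neuron genes were called lower (median -3.04). Slc6a5, the neuronal glycine transporter, was at 569.8, 385, 429.6 and 353 CPM against 22.4, 44.3 and 6.68 CPM (log2 fold change -4.15, SE 0.57, adjusted p = 2.17e-06), and Slc32a1, the vesicular transporter of GABA and glycine, at 169 to 252 CPM in Intact and 4.44 to 27.7 in sub-SCI (-3.58). Of 6 excitatory neuron genes 5 were lower, among them Slc17a6, the main spinal vesicular glutamate transporter, at 215, 170.4, 196 and 178 CPM in Intact and 21.3, 34.03 and 14.4 CPM in sub-SCI (log2 fold change -3.03, SE 0.45, adjusted p = 5.46e-06). Slc17a8 also fell (-4.12), but it stayed under 2 CPM in every library. No sub-SCI library reached an Intact library in Slc5a7, Ache, Slc6a5, Slc32a1 or Slc17a6.

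Neuropeptide transcripts changed less. Of 13 peptide genes tested, 3 were called lower and 0 higher, with a median of -1.43. The share called lower, 23.1%, was near the 17.5% of all genes tested. Tac3, the neurokinin B precursor, was at 14.5, 11.96, 10.7 and 11.4 CPM in Intact and 4.65, 2.61 and 2.204 CPM in sub-SCI (log2 fold change -1.94, SE 0.52, adjusted p = 0.00271), and Nmu (neuromedin U) was under 3 CPM throughout (-1.81). The abundant dorsal horn peptides Sst and Penk, somatostatin and proenkephalin, were not called although their groups did not overlap: Sst was at 69.3 to 97.7 CPM in Intact and 18.6 to 42.03 in sub-SCI (-1.44, SE 0.55, adjusted p = 0.0271), and Penk at 98.1 to 122 CPM in Intact and 24.6 to 54.2 in sub-SCI (-1.43, SE 0.54, adjusted p = 0.0259). The count for this list rested on single libraries. Without sub-SCI replicate 2 and without sub-SCI replicate 3 it was 0, and with DESeq2 on the 2 groups it was 8.

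**Figure D3:**
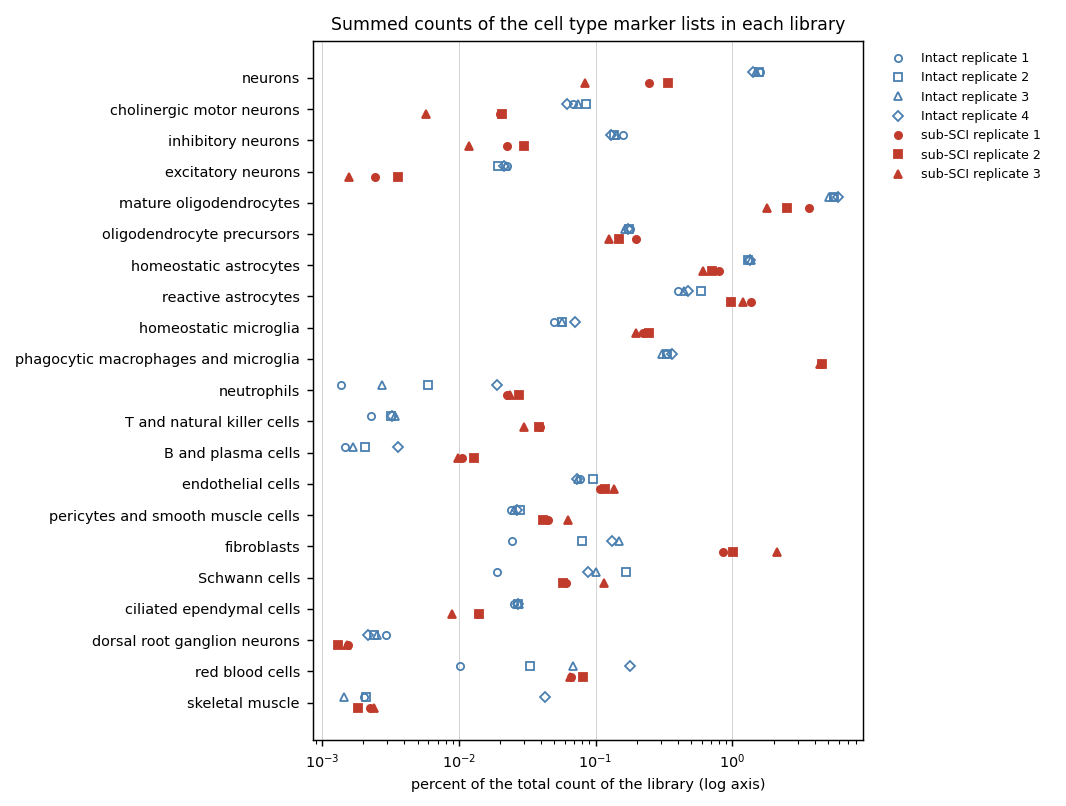
Summed counts of 21 cell type marker lists as a percent of the total count (log axis) in each Intact library (open blue) and sub-SCI library (filled red), with a marker shape for each replicate number. The neuron, motor, inhibitory and excitatory neuron lists lie lower in every sub-SCI library and lowest in replicate 3, phagocyte lists lie higher with little spread, and Schwann cell, red blood cell and skeletal muscle lists vary widely within Intact.

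Inhibitory receptor genes were followed up by the study, so all members were examined. GABA-A receptors are chloride channels built mainly from alpha, beta and gamma subunits, and GABA-B receptors are G protein-coupled. Of 20 GABA receptor subunit genes, 15 were called lower and 1 higher (median -2.18). The alpha subunit gene Gabra5 was at 56.8, 47.5, 49.1 and 44.6 CPM in Intact and at 3.49, 6.597 and 1.22 CPM in sub-SCI (log2 fold change -3.72, SE 0.58, adjusted p = 9.61e-06). Gabra3, another alpha subunit gene, was at 50.3, 37.7, 45.5 and 34.2 CPM against 3.43, 5.69 and 1.86 CPM (log2 fold change -3.52, SE 0.4, adjusted p = 1.87e-07). No sub-SCI library reached an Intact library in either. The GABA-B genes Gabbr1 and Gabbr2 were also lower, with log2 fold changes of -1.68 and -2.84, and Gabbr1 still stood at 196 to 326 CPM. The exception was Gabrr2, a rho subunit best known from the retina, which was at 0, 0.0458, 0.139 and 0.304 CPM in Intact and at 2.88, 4.57 and 4.17 CPM in sub-SCI (log2 fold change 4.83, SE 0.5, adjusted p = 4.01e-08). It rose in all 3 libraries from a level near the limit of detection. Not called were Gabrd, Gabrp, Gabrr1 and Gabrr3. 

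Chloride transport genes moved in different directions. Slc12a5, which encodes the neuronal chloride extruder KCC2, was at 486, 398, 443 and 385 CPM in Intact and at 34.7, 47.4 and 11.5 CPM in sub-SCI (log2 fold change -3.78, SE 0.44, adjusted p = 2.22e-07). Slc12a2, the chloride importer NKCC1, was at 504 to 516 CPM in Intact and 271 to 318 in sub-SCI and its change did not reach the fold threshold (-0.8, SE 0.14, adjusted p = 4.09e-05). Slc12a7, the potassium-chloride cotransporter KCC4, rose from 10.04, 20.2, 24.9 and 25.2 CPM to 89.8, 116 and 167 CPM (log2 fold change 2.62, SE 0.44, adjusted p = 2.34e-05). The groups did not overlap for any of the 3 transporters. Wnk1, a kinase that regulates them, was at 331 to 368 CPM in Intact and 322 to 341 in sub-SCI (-0.06, SE 0.13, adjusted p = 0.728). Of the 8 genes in this list, 3 were lower and 1 higher. Of 6 glycine receptor genes 5 were lower, with Glra1, the adult alpha subunit, at 158, 137, 165 and 110.2 CPM against 6.71, 11.2 and 2.88 CPM (log2 fold change -4.36, SE 0.41, adjusted p = 1.16e-08) and Glrb at -2.1, while Gphn (gephyrin, the scaffold of inhibitory synapses) was not called (-0.89, SE 0.17, adjusted p = 9.77e-05).

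**Figure D4:**
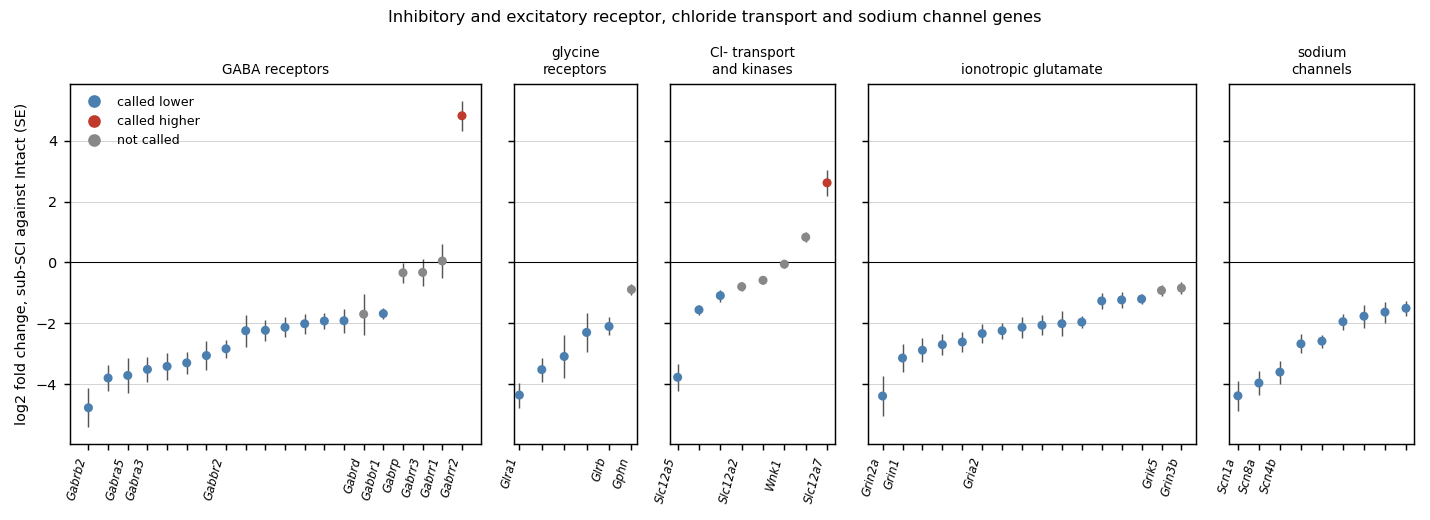
Log2 fold change in sub-SCI against Intact (vertical axis; error bars, SE) of every tested member of 5 lists of receptor, chloride transport and sodium channel genes, with the genes named in the text labelled, colored by whether the gene was called lower (blue), higher (red) or not (gray). Gabrr2 and Slc12a7 are the members called higher, and all 9 sodium channel genes are called lower.

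Excitatory receptors and ion channels fell nearly as a whole. Of 16 ionotropic glutamate receptor subunits 14 were lower (median -2.1), and the others were Grik5 and Grin3b. Grin1, the obligatory NMDA receptor subunit, was at 303, 260.5, 289 and 256 CPM in Intact and 35.2, 46.8 and 12 CPM in sub-SCI (log2 fold change -3.14, SE 0.47, adjusted p = 6.18e-06). Grin2a fell by more (-4.4), and Gria2, the AMPA receptor subunit that limits calcium entry, by less (-2.34). 7 of 8 metabotropic receptors were lower, including Grm2 (-3.43) and Grm3 (-2.8), the last of which astrocytes express too. All 9 sodium channel genes were lower: Scn1a was at 313, 246, 337 and 247 CPM against 10.6, 27 and 3.32 CPM (log2 fold change -4.39, SE 0.48, adjusted p = 1.12e-07), and Scn8a, the channel of mature nodes of Ranvier, at 305, 233, 304 and 220.2 CPM against 16.3, 24.9 and 9.73 CPM (log2 fold change -3.97, SE 0.39, adjusted p = 1.94e-08). Within sub-SCI, both were highest in replicate 2 and lowest in replicate 3. The beta subunit gene Scn4b fell too (-3.61).

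Of 16 calcium channel genes 14 were lower, with Cacng2 (stargazin, -3.68) and Cacna1e (-3.17) changing most, and Cacna2d2 and Cacna1a at -2.47 and -1.48. Of 28 potassium channels 23 were lower. Among them Kcna2, found beside nodes, was at 682 to 898 CPM in Intact and 40.1 to 96.4 in sub-SCI (-3.41) and Kcnk9 changed by -4.17. 2 channels rose instead. Kcnn4, the calcium-activated channel of leukocytes and microglia, was at 1.47, 1.92, 1.71 and 6.84 CPM in Intact, with replicate 4 above the rest, and at 47.8, 70.4 and 68.8 CPM in sub-SCI (log2 fold change 4.35, SE 0.55, adjusted p = 6.38e-07), and Kcnk13, a leak channel of microglia, was at 2.78, 2.84, 3.15 and 3.801 CPM against 20.1, 25.3 and 18.3 CPM (log2 fold change 2.75, SE 0.22, adjusted p = 1.06e-09). The groups were separate in both. 

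Presynaptic and axonal genes followed the neuronal markers. 23 of 24 vesicle release genes were lower (median -2.91), and the remaining member, Stx1a, was not called (-0.81, SE 0.25, adjusted p = 0.0072). Cplx1 (complexin) was at 1154, 993, 1047 and 966 CPM in Intact and 99.96, 132 and 33.5 CPM in sub-SCI (log2 fold change -3.56, SE 0.54, adjusted p = 8.32e-06). Vamp1, the vesicle SNARE of spinal and motor terminals, was at 1629 to 1926 CPM in Intact and 85.95 to 339.8 in sub-SCI (-2.94). Of 8 genes of the node of Ranvier and its paranodes 7 were lower. Cntnap1 (Caspr, the axonal paranode protein) changed by -2.62, Epb41l3 by -2.59 and Cntn1 by -1.76. Nfasc, whose glial and neuronal isoforms are counted as 1 gene, was at 966, 966, 944 and 840.1 CPM against 1145, 608 and 463 CPM and overlapped between groups (-0.33, SE 0.34, adjusted p = 0.409). Sub-SCI replicate 1 was above all Intact libraries for Nfasc and replicates 2 and 3 below them.

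Serotonin receptors, through which descending axons set motor neuron excitability, fell in 8 of 10 cases (median -2.58). Htr2c was at 227, 169, 174 and 152 CPM in Intact and 13.02, 28.6 and 4.48 CPM in sub-SCI (log2 fold change -3.56, SE 0.56, adjusted p = 1.21e-05). Htr2b rose in all 3 sub-SCI libraries, from 0.655, 0.641, 0.509 and 0.836 CPM to 33.05, 46.8 and 55.7 CPM (log2 fold change 6.08, SE 0.3, adjusted p = 3.56e-12). Its groups were the farther apart of the 2, with no Intact library above 1 CPM.

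Mature oligodendrocyte genes fell by less than neuronal genes. Of 14 genes 8 were called lower and 0 higher (median -1.14), and their share of counts was 5.08% to 5.91% in Intact and 1.78% to 3.63% in sub-SCI. Mbp, myelin basic protein, was at 32980.5, 34568, 31206 and 35084 CPM in Intact and 21991, 14012 and 10679 CPM in sub-SCI (log2 fold change -1.1, SE 0.29, adjusted p = 0.00215). The groups were separate, and sub-SCI replicate 1 was the highest of its group and replicate 3 the lowest. Mbp was not called without sub-SCI replicate 2 or without sub-SCI replicate 3. Mobp (-2.03, SE 0.3, adjusted p = 6.17e-06) and Ermn (-1.86, SE 0.24, adjusted p = 9.25e-07), both proteins of compact or outer myelin, fell by more than Mbp and kept their calls in every alternative. Without replicate 3 the list had 6 genes lower.

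Oligodendrocyte precursor genes changed little: 1 of 10 was called, Pdgfra, at 83.8, 103, 156 and 127 CPM in Intact and 198, 199.5 and 331 CPM in sub-SCI (log2 fold change 1.05, SE 0.33, adjusted p = 0.00857). Pdgfra is expressed by fibroblasts as well as precursors, and it stood in the fibroblast list too, whose summed share was 0.0246% to 0.147% in Intact and 0.853% to 2.1% in sub-SCI. The part of those cells in the Pdgfra value was not tested, and the call was lost without sub-SCI replicate 3 or without Intact replicate 1, 2 or 4. Olig1 was at 327 to 398 CPM in Intact and 116 to 243 in sub-SCI (-0.9, SE 0.3, adjusted p = 0.012) and Bcas1 at 760.5 to 977 CPM in Intact and 459.6 to 889 in sub-SCI (-0.4, SE 0.3, adjusted p = 0.248), neither called. The median of the list, 0.21, was -0.24 without sub-SCI replicate 1. 

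Cholesterol synthesis, which in the cord serves myelin and is active in oligodendrocytes and astrocytes, was lower as a pathway. Of 22 genes, 19 were called lower and 0 higher (median -1.83), and the remaining 3 were Pmvk, Ebp and Dhcr7. Hmgcs1, an early enzyme of the pathway, was at 987, 1065, 782 and 787 CPM in Intact and 186, 94.5 and 99.1 CPM in sub-SCI (log2 fold change -2.84, SE 0.29, adjusted p = 4.01e-08). Insig1, a sterol-sensing regulator and itself a target of the pathway's transcription factor, fell too (-2.33). No sub-SCI library reached an Intact library in Hmgcs1 or Insig1. Over all genes of the list, the summed share was 0.45% to 0.54% in Intact and 0.108% to 0.167% in sub-SCI.

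Efflux and storage of cholesterol moved the other way, with 9 of 12 genes higher and none lower (median 2.08). This list is not independent of 2 lists described below: Apoe, Plin2 and Cd36 were also listed for phagocytes and Lipa for the lysosome. Abca1, the exporter that loads cholesterol onto apolipoproteins, was at 39.7, 56.3, 51.2 and 83.5 CPM in Intact and 593, 777 and 650.1 CPM in sub-SCI (log2 fold change 3.54, SE 0.3, adjusted p = 3.2e-09). Apoe, the main apolipoprotein of the nervous system, was at 2805, 2776, 2433 and 2751 CPM against 30360.4, 26767 and 23697 CPM (log2 fold change 3.32, SE 0.23, adjusted p = 2.25e-10). Intact libraries were tightly grouped for Apoe and every sub-SCI library was several times higher. 

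Promoter sequences of the cholesterol genes are shown as background. Here and for later lists, shares of windows count members whether called or not and do not test the change in expression. RefSeq windows from 250 bases before to 50 bases after the gene start (build GRCr8, 1 window per symbol) were found for 16 members. The letters CCAAT, the core of the site bound by NF-Y, were present on either strand in 14 of them (87.5%), against 37.7% of 27457 windows of all symbols. The letters TCACNCCAC, a form of the sterol response element, were in 0 of the 16 and in 1.1% of all windows. In the Hmgcs1 window (chr2:53382054-53382353, plus strand) capitals mark the 2 matches to CCAAT, read here on the opposite strand.
Hmgcs1: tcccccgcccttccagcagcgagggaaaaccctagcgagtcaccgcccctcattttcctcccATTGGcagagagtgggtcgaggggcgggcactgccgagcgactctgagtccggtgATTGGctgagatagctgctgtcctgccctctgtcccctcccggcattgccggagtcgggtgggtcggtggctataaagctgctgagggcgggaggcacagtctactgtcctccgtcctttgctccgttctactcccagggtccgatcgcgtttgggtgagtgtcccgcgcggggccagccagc

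Genes of resting astrocytes and of reactive astrocytes went in opposite directions. Of 15 genes of homeostatic astrocytes 10 were lower and 0 higher (median -1.21). Slc1a2, the glutamate transporter GLT-1, was at 309.7, 210.3, 297 and 208 CPM in Intact and 41.3, 30.7 and 21.8 CPM in sub-SCI (log2 fold change -3.03, SE 0.42, adjusted p = 2.2e-06). The groups were separate. S100b fell (-1.09), a call lost without sub-SCI replicate 3, whereas Glul, glutamine synthetase, was at 1983 to 2361 CPM in Intact and 2524 to 2829 in sub-SCI and was not called (0.28, SE 0.11, adjusted p = 0.0286). Aqp4, the water channel of astrocyte endfeet, and Kcnj10, the potassium buffer channel, were also among the genes called lower, at -1.46 and -2.16. 

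Of 19 reactive astrocyte genes 16 rose and 0 fell (median 2.54). Vim, the intermediate filament vimentin, was at 89.4, 336, 372 and 304 CPM in Intact and 3412, 2716 and 5072 CPM in sub-SCI (log2 fold change 3.76, SE 0.34, adjusted p = 7.22e-09). Timp1, an inhibitor of metalloproteinases, was at 4.58, 11.2, 17.5 and 15.4 CPM against 213, 213 and 353 CPM (log2 fold change 4.41, SE 0.31, adjusted p = 2.73e-10), and Tnc, the matrix protein tenascin-C, at 7.04, 7.15, 9.39 and 16.4 CPM against 435, 535 and 963 CPM (log2 fold change 6.0, SE 0.56, adjusted p = 1.09e-08). Each of the 3 rose in every sub-SCI library, Vim and Tnc most in replicate 3. Gfap, the filament protein by which reactive astrocytes are usually recognized, was at 3868, 5415, 3795 and 4057 CPM in Intact and 7919, 4611 and 3680.2 CPM in sub-SCI. The 2 groups overlapped and Gfap was not called (log2 fold change 0.34, SE 0.28, adjusted p = 0.308), its sign changing to -0.05 without sub-SCI replicate 1. The other members not called were Lcn2 and Stat3. Many genes of this list, Vim, Timp1 and Tnc among them, are expressed by fibroblasts and macrophages too, whose own markers rose in the same libraries, and the part of those cells was not tested.

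Most genes of the homeostatic microglia list rose, as did markers of phagocytosis. Of 13 homeostatic microglia genes 9 were higher and 0 lower (median 1.65). Csf1r, the receptor for the survival factors of the lineage, was at 143, 169.6, 178 and 214 CPM in Intact and 798, 808 and 610.4 CPM in sub-SCI (log2 fold change 2.07, SE 0.22, adjusted p = 6.62e-08). Aif1, which encodes IBA1, rose by 3.63, and Trem2, a lipid-sensing receptor, by 4.63 (7.42 to 19 CPM in Intact and 288 to 359 in sub-SCI). P2ry12 and Tmem119, the markers most restricted to microglia in the list, were at 16.1 to 27.6 CPM in Intact and 30.9 to 46.4 in sub-SCI and at 26.2 to 37.1 CPM in Intact and 36.8 to 72.2 in sub-SCI, and neither was called (log2 fold changes 0.79 and 0.81). Sall1 and Selplg were not called either, at 0.01 and -0.07. The 4 genes not called were named after their values were seen. Markers of macrophages rose in the same libraries, and the part of those cells in the 9 rises was not tested.

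Phagocyte genes made the largest shift among the cell type lists. 21 of 22 were called higher and 0 lower (median 4.17), and their summed share was 0.306% to 0.359% of counts in Intact and 4.33% to 4.51% in sub-SCI. Most of that share came from Apoe, whose CPM are given above. The summed CPM of the list were 3216 to 3662 in Intact and 44585 to 45553 in sub-SCI. Gpnmb, a glycoprotein of lipid-laden macrophages, was at 20.1, 20.8, 24.2 and 36.1 CPM in Intact and 5467, 6165 and 6614 CPM in sub-SCI (log2 fold change 7.91, SE 0.41, adjusted p = 6.11e-12). Cd68, a lysosomal membrane protein of phagocytes, was at 2.401, 3.298, 3.56 and 5.82 CPM against 547, 702 and 689 CPM (log2 fold change 7.41, SE 0.4, adjusted p = 8.42e-12). The spread between libraries was small beside the difference for both, and sub-SCI replicate 3 was not apart from the other libraries in the summed share. Cd163, the scavenger receptor for hemoglobin, was the member not called (1.37, SE 0.61, adjusted p = 0.0567).

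Lysosomal genes rose with them. Of 37 genes 28 were higher and 1 lower (median 2.06), and their share of counts was 0.691% to 0.767% in Intact and 3.05% to 3.46% in sub-SCI. Ctsb, the protease cathepsin B, was at 573, 544, 573 and 569 CPM in Intact and 6386, 6994 and 7184 CPM in sub-SCI (log2 fold change 3.6, SE 0.19, adjusted p = 5.76e-12). Ctsc rose by 4.19 and Psap, the precursor of the saposins, by 1.24. Subunits of the proton pump diverged: Atp6v0d2, an isoform of macrophages and osteoclasts, was at 0.109, 0, 0.0463 and 0.836 CPM against 10.5, 10.9 and 7.19 CPM (log2 fold change 5.13, SE 1.06, adjusted p = 0.000267), whereas Atp6v1a, the catalytic subunit that neurons and other cells use, was at 452 to 572 CPM in Intact and 224 to 258 in sub-SCI (log2 fold change -1.05, SE 0.14, adjusted p = 1.09e-06). Groups did not overlap for either subunit, but the call for Atp6v1a, close to the fold threshold, was lost without Intact replicate 1, without sub-SCI replicate 1 or with no filter on low counts. 

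Iron and heme genes showed a narrower response, 7 of 17 being higher and 0 lower (median 1.21). Hmox1, heme oxygenase, which breaks down heme, was at 15.1, 13.7, 14.8 and 19.4 CPM in Intact and 522, 534 and 743 CPM in sub-SCI (log2 fold change 5.25, SE 0.28, adjusted p = 6.41e-12). Ftl1, the ferritin light chain, was at 1.65 to 2.39 CPM in Intact and 21.7 to 26.1 in sub-SCI (3.51). Tf, the iron carrier that oligodendrocytes make, and Tfrc, its receptor, were not called, at 2558 to 3220.3 CPM in Intact and 1487 to 2851 in sub-SCI for Tf and 169 to 192 CPM in Intact and 179 to 269.8 in sub-SCI for Tfrc. Their groups overlapped. Hemoglobin transcripts varied more within Intact than between groups: Hba-a2 was at 77.8, 249.5, 441 and 1132 CPM in Intact and 352, 475 and 444 CPM in sub-SCI (-0.16, SE 0.84, adjusted p = 0.88), and none of the 6 red blood cell genes was called. The part of blood left in the segments in the Hmox1 value was not tested.

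Complement genes were higher in 16 of 21 cases and lower in 0 (median 2.7). C1qa, a chain of the initiating component C1q that microglia and macrophages make, was at 58.01, 84.2, 77.99 and 108 CPM in Intact and 1609, 1222 and 746 CPM in sub-SCI (log2 fold change 3.86, SE 0.31, adjusted p = 1.18e-09), with sub-SCI replicate 3 the lowest of its group. C1qc rose by 4.57 and C6, a component of the terminal pathway, by 4.65 (0.546 to 4.49 CPM in Intact and 37 to 66.9 in sub-SCI). C3, the central component, was at 133 to 249.8 CPM in Intact and 56.3 to 248 in sub-SCI and was not called (-0.03, SE 0.54, adjusted p = 0.966), and the membrane regulators Cd46, Cd55 and Cd59 were not called either, at -0.22, -0.19 and -0.79. 

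Interferon-stimulated genes rose in 23 of 25 cases and fell in 0 (median 2.18). Mx1, an antiviral GTPase, was at 2.89, 4.99, 4.02 and 9.46 CPM in Intact and 72.96, 126 and 27.8 CPM in sub-SCI (log2 fold change 3.8, SE 0.52, adjusted p = 2.04e-06). Cxcl10, a chemokine that draws T cells, was at 0.764, 1.56, 0.694 and 0.988 CPM against 13.9, 22.3 and 7.36 CPM (log2 fold change 3.84, SE 0.41, adjusted p = 7.7e-08), and Ifitm3 was at 12.3 to 22.4 CPM in Intact and 136 to 211 in sub-SCI (3.08). Mx1 varied widely within sub-SCI, with replicate 3 lowest, and all 3 libraries were still above Intact. Not called were Stat2, a component of the interferon-activated transcription complex (0.66, SE 0.14, adjusted p = 0.000481), and Ifit1 (-3.08, SE 1.5, adjusted p = 0.0811). 

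Promoter windows were found for 18 of these genes, and the letters GAAANNGAA, a short form of the interferon-stimulated response element, were present on either strand in 10 (55.6%) against 9.5% of all windows. A match is a run of letters and was not tested as a binding site. In the same windows 5 of 10 MHC class II pathway genes held CTGATTGG, against 3.6% of all windows. CTGATTGG is the Y box of class II promoters and contains CCAAT on the other strand. None of these carriers was called higher: of the 3 called class II genes with a window, 0 held the letters. Of 29 lysosome genes 4 held TCACGTGA, the core of the lysosomal CLEAR element, against 0.9%. Among the 22 called lysosome genes with a window, 1 held it. The windows of Cxcl10 (chr14:15988816-15989115, plus strand) and Ifitm3 (chr1:205541709-205542008, minus strand) are shown with their match in capitals, since these 2 genes carried the letters and lay among the largest or most abundant changes of the list.
Cxcl10: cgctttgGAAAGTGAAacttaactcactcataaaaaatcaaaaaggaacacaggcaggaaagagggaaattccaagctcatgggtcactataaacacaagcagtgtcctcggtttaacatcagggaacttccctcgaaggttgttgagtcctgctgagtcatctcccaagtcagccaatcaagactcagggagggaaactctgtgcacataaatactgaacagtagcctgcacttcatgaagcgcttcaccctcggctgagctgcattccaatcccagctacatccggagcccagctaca
Ifitm3: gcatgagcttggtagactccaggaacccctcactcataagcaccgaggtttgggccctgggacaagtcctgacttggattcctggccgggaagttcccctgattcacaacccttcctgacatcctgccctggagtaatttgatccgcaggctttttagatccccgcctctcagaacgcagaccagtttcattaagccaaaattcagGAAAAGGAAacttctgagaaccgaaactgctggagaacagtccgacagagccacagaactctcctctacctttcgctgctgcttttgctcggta

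Antigen presentation genes were above Intact on average, but most were not called. Of 12 MHC class II pathway genes 3 were called higher (median 2.02), or 25% against 16.6% of all genes, with all 12 fold changes positive. Cd86, a costimulator of T cells, was at 2.89, 2.75, 1.53 and 3.42 CPM in Intact and 23.6, 37.2 and 21.4 CPM in sub-SCI (log2 fold change 3.37, SE 0.25, adjusted p = 5.47e-10), and RT1-DOb also rose (2.37), a call lost without sub-SCI replicate 2. Cd74, the invariant chain, was at 24.9, 63.6, 82.3 and 81.6 CPM in Intact and 238, 149.6 and 115 CPM in sub-SCI and was not called (log2 fold change 1.41, SE 0.68, adjusted p = 0.0758). RT1-Da, a class II alpha chain, was at 2.89 to 22.4 CPM in Intact and 40.8 to 74 in sub-SCI (1.96, SE 0.69, adjusted p = 0.0184). Groups did not overlap for Cd74 or RT1-Da, and Intact replicate 1 lay lowest in both. With DESeq2 on the 2 groups 7 members were called, and with DESeq2 on all 26 libraries 5.

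T cell markers rose while B cell markers mostly did not. Of 15 T and natural killer cell genes 13 were higher and 0 lower (median 4.02), with a summed share of 0.0023% to 0.0034% in Intact and 0.0297% to 0.0394% in sub-SCI. Most of that share came from Cd4, Cd8a and Cd8b, and without these 3 genes, set apart after their values were seen, it was 0.00035% to 0.0008% in Intact and 0.004% to 0.0054% in sub-SCI. Cd8b was at 0.0546, 0.183, 0.0463 and 0.114 CPM in Intact and 33.4, 38.6 and 28.96 CPM in sub-SCI (log2 fold change 8.3, SE 0.42, adjusted p = 4.86e-12), beside the values of Cd8a given above. Cd4, which macrophages and microglia of the rat express as well as helper T cells, was at 20.4 to 29.4 CPM in Intact and 67.7 to 145 in sub-SCI (2.2). The CD3 chains of the T cell receptor complex, Cd3d, Cd3e and Cd3g, defining markers of T cells, rose by 4.8, 5.35 and 4.61 on the log2 scale, and Cd3e stood at 4.56, 4.78 and 3.42 CPM in sub-SCI. Rat macrophages can carry CD8 too. With a filter of at least 10 counts in every library, 4 genes of the list were left and 2 were called, since most of it was near 0 in Intact.

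Of 9 B and plasma cell genes 2 were higher, Blnk at 9.55 to 15.6 CPM in Intact and 90.5 to 112 in sub-SCI (2.95) and Cd22 at 1.39 to 3.04 CPM in Intact and 7.83 to 13.1 in sub-SCI (2.04, SE 0.61, adjusted p = 0.00602), both of which myeloid cells or microglia can express. The lineage markers Ms4a1, Cd79b and Pax5 were not called, and the median of the list was -1.36. The call for Cd22 was lost when any 1 library other than sub-SCI replicate 3 was left out. Of 10 neutrophil genes 2 were higher, Mmp8 (neutrophil collagenase) at 0.873, 4.76, 2.36 and 11.6 CPM in Intact and 118, 137 and 101 CPM in sub-SCI (log2 fold change 4.57, SE 0.71, adjusted p = 9.79e-06) and Csf3r at 5.402 to 13.2 CPM in Intact and 63.5 to 84.2 in sub-SCI (3.03). S100a8 and S100a9, the most abundant granulocyte genes, were not called (0.16 and 0.19 on the log2 scale), and Intact replicate 4 held the highest Intact value of Mmp8. The list median, 0.04, turned with single libraries, from -0.3 without Intact replicate 3 to 1.47 without Intact replicate 4. The shares called higher, 22.2% of the B cell and 20% of the neutrophil list, were near the 16.6% of all genes.

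Signals between immune cells rose broadly. 14 of 26 chemokine and chemokine receptor genes were higher and 0 lower (median 2.91). Ccl5 was at 0.109, 0.321, 0.278 and 0.152 CPM in Intact and 21.8, 16.3 and 11.3 CPM in sub-SCI (log2 fold change 6.22, SE 0.65, adjusted p = 5.65e-08), and Cxcl11 at 0.0463 to 0.275 CPM in Intact and 5.32 to 9.21 in sub-SCI (5.81). Cxcl14 rose from a higher level (95.6 to 125 CPM in Intact and 207 to 315 in sub-SCI, 1.2), a call that was lost without sub-SCI replicate 1 or without Intact replicate 1, 2 or 3. Cx3cl1, the neuronal ligand of the microglial receptor, was at 133 to 155 CPM in Intact and 63.5 to 86.1 in sub-SCI and was not called (-0.9, SE 0.14, adjusted p = 1.13e-05). Of 20 cytokine and innate sensor genes 17 were higher (median 2.33). Il1a was at 0.218, 0.321, 0.231 and 0.228 CPM against 2.65, 4.68 and 4.103 CPM (log2 fold change 3.9, SE 0.41, adjusted p = 5.34e-08), Csf2rb, the shared receptor chain for GM-CSF, at 3.93 to 7.87 CPM in Intact and 69.6 to 105 in sub-SCI (3.86), and Il33, an alarmin of glia, at 29.2 to 42.6 CPM in Intact and 118 to 263 in sub-SCI (2.27). Il1b (1.75, SE 0.71, adjusted p = 0.0359), Csf1 (0.77, SE 0.13, adjusted p = 3.75e-05) and Nfkbia (0.9, SE 0.32, adjusted p = 0.0171) were not called. 

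Fibroblast and matrix genes formed the other large increase. Of 14 fibroblast genes 13 were higher (median 3.67), with a share of 0.0246% to 0.147% in Intact and 0.853% to 2.1% in sub-SCI, the highest being replicate 3. Without sub-SCI replicate 3, 11 fibroblast genes were higher (median 2.86). Col1a1, the alpha 1 chain of type I collagen, was at 16.2, 139.8, 209 and 418 CPM in Intact and 3022, 3215 and 6001 CPM in sub-SCI (log2 fold change 4.38, SE 0.71, adjusted p = 1.64e-05). Col3a1 was at 9.33, 132, 458 and 229.6 CPM against 2751, 3066 and 5768 CPM (log2 fold change 4.22, SE 0.82, adjusted p = 0.00013). Intact replicate 1 was far below the other Intact libraries in both, and sub-SCI replicate 3 was well above replicates 1 and 2. Postn, periostin, rose by 5.06 (2.401 to 13.8 CPM in Intact and 175 to 306 in sub-SCI) and Fap, a protease of activated fibroblasts, by 4.81, with no count in Intact replicate 1. Dpt was the fibroblast gene not called.

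Of 25 collagen genes 17 were higher and 2 lower (median 2.27), and their share of counts was 0.0865% to 0.206% in Intact and 0.97% to 1.84% in sub-SCI. The collagens that fell were Col11a2, at 201 to 255 CPM in Intact and 43.1 to 121 in sub-SCI (-1.41), and Col2a1, the cartilage collagen, at 8.68, 13.3, 8.97 and 61.6 CPM in Intact and 10.4, 6.38 and 3.73 CPM in sub-SCI (log2 fold change -1.76, SE 0.52, adjusted p = 0.00549). The Col2a1 call rested on Intact replicate 4, which was several times above the other 3, and was lost without it, without sub-SCI replicate 2 or without sub-SCI replicate 3. Of 22 other matrix and crosslinking genes 19 were higher (median 3.16). Fn1, fibronectin, was at 96.04, 213, 326 and 242 CPM in Intact and 1355, 1866 and 5829.9 CPM in sub-SCI (log2 fold change 3.78, SE 0.56, adjusted p = 5.25e-06), and Sparc at 1092 to 1501 CPM in Intact and 2469 to 3764 in sub-SCI (1.22). For Fn1 sub-SCI replicate 3 was far above replicates 1 and 2.

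Genes of matrix proteolysis and its inhibitors changed in part. 7 of 18 metalloproteinase and inhibitor genes were higher and 1 lower (median 1.0). The median was 2.55 without Intact replicate 4, and 2 genes were lower without sub-SCI replicate 1. Mmp7 was at 0, 0, 0.139 and 0.07602 CPM in Intact and 22.2, 27.8 and 21.9 CPM in sub-SCI (log2 fold change 8.62, SE 1.54, adjusted p = 5.38e-05). Timp4, the inhibitor that fell, was at 41.1 to 49.7 CPM in Intact and 9.56 to 16.5 in sub-SCI (-1.77), while Timp2 (0.87, SE 0.17, adjusted p = 0.000136) and Adamts4, an aggrecanase (-0.11, SE 0.18, adjusted p = 0.596), were not called. Mmp9, a gelatinase often measured after injury, was at 0.709, 2.24, 1.25 and 14.5 CPM in Intact and 9.59, 9.71 and 11.8 CPM in sub-SCI and was not called (log2 fold change 1.13, SE 0.74, adjusted p = 0.195). In the TGF-beta pathway 12 of 20 genes were higher and 0 lower. The receptor Tgfbr1 was at 45.6 to 60.02 CPM in Intact and 315 to 533 in sub-SCI (2.99) and the latent binding protein Ltbp2 at 0.873 to 5.701 CPM in Intact and 76.8 to 263 in sub-SCI (5.17). Ltbp3 was not called (0.66, SE 0.17, adjusted p = 0.00161). Ltbp2 was highest in sub-SCI replicate 3.

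Chondroitin sulfate proteoglycans, which limit axon growth and stabilize perineuronal nets, divided by member. Of 14 genes 3 rose and 6 fell, or 21.4% and 42.9% against 16.6% and 17.5% of all genes tested. Vcan (versican) was at 101, 109, 119 and 105 CPM in Intact and 269.8, 314 and 454 CPM in sub-SCI (log2 fold change 1.67, SE 0.21, adjusted p = 6.63e-07), Ncan (neurocan) at 98.4, 83.7, 77.5 and 73.3 CPM against 375, 194 and 198 CPM (log2 fold change 1.62, SE 0.35, adjusted p = 0.00045), and Chsy1, an enzyme that builds the sugar chains, at 16.9 to 24.2 CPM in Intact and 87.2 to 107 in sub-SCI (2.2). Those 3 were above Intact in each library. The link proteins of nets and nodes fell: Hapln1 was at 25.2 to 38.1 CPM in Intact and 0.6103 to 4.24 in sub-SCI (-3.91), Hapln4 at 298 to 358 CPM in Intact and 6.002 to 47.5 in sub-SCI (-3.69) and Hapln2 at 458 to 555 CPM in Intact and 164 to 266 in sub-SCI (-1.23). Acan (aggrecan), the main proteoglycan of the nets, fell too (-2.4). Bcan (brevican) was at 425, 484, 419 and 392 CPM against 426, 277 and 161 CPM and overlapped between groups (-0.58, SE 0.29, adjusted p = 0.0882). 

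Vessel genes changed in part. 5 of 15 endothelial genes were higher and 1 lower (median 0.55). Eng, a TGF-beta co-receptor of growing vessels, was at 44.6, 69.2, 42.2 and 45.95 CPM in Intact and 183, 229.9 and 269 CPM in sub-SCI (log2 fold change 2.17, SE 0.23, adjusted p = 6.92e-08), and Tie1 at 32.99 to 39.03 CPM in Intact and 143 to 178 in sub-SCI (2.13). Mfsd2a, a lipid transporter of the blood-cord barrier, was at 55.99, 68.1, 59.02 and 53.97 CPM against 22.99, 25.4 and 13.5 CPM (log2 fold change -1.52, SE 0.37, adjusted p = 0.00108). Slc2a1, the barrier glucose transporter, was at 209.6 to 309 CPM in Intact and 192 to 230.5 in sub-SCI (-0.29, SE 0.2, adjusted p = 0.224) and Vwf at 74.4 to 146 CPM in Intact and 138 to 216 in sub-SCI (0.73, SE 0.33, adjusted p = 0.0574), with groups that overlapped. Without sub-SCI replicate 3 the counts were 3 higher and 0 lower. Of 10 mural cell genes 4 were higher: Pdgfrb was at 34.1 to 49.96 CPM in Intact and 135 to 199 in sub-SCI (1.84), Tagln at 31.9 to 45.2 CPM in Intact and 84.9 to 196 in sub-SCI (1.95), Cnn1 at 0.327 to 0.646 CPM in Intact and 1.02 to 9.56 in sub-SCI (3.01) and Acta2 changed by 1.33, a call lost without sub-SCI replicate 3 or without Intact replicate 1, 3 or 4. Fibroblasts express Pdgfrb and the contractile genes too. The pericyte genes Rgs5, Kcnj8 and Abcc9 were not called, at -0.38, 0.75 and -0.16. 

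Cell division genes were higher almost without exception, 27 of 28 (median 3.16), and their share of counts was 0.0167% to 0.0246% in Intact and 0.0891% to 0.155% in sub-SCI. Mki67, which encodes the proliferation antigen Ki-67, was at 6.603, 8.98, 6.15 and 22.7 CPM in Intact and 85.7, 109.6 and 174 CPM in sub-SCI (log2 fold change 3.46, SE 0.4, adjusted p = 1.8e-07). Cdk1, the kinase of mitotic entry, was at 1.09, 1.603, 0.925 and 3.497 CPM against 32.4, 31.3 and 55.4 CPM (log2 fold change 4.45, SE 0.43, adjusted p = 2e-08), and Pcna, the replication clamp, at 40.1 to 49.3 CPM in Intact and 101 to 127 in sub-SCI (1.27). Intact replicate 4 was the highest of its group in Mki67 and Cdk1 and sub-SCI replicate 3 the highest of its own, with no overlap. Ccne1 was the member not called (0.17, SE 0.27, adjusted p = 0.594). Of 22 members with a promoter window, 10 (45.5%) held the letters TTTGAA, a core form of the cell cycle homology region, against 18.1% of all windows, and 16 held CCAAT (72.7% against 37.7%). The Cdk1 window (chr20:19265043-19265342, plus strand) is shown with its 2 matches to TTTGAA in capitals.
Cdk1: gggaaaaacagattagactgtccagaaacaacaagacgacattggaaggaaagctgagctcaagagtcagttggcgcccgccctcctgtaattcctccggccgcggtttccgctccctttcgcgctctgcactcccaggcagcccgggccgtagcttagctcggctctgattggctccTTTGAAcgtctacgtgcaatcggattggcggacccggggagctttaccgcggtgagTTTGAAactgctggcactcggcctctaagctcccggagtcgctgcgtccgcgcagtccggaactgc

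Genes for protein synthesis and folding rose moderately. 19 of 20 cytosolic ribosomal protein genes were higher (median 1.53). Rplp0 was at 272, 328, 331 and 349 CPM in Intact and 1225, 1292 and 1452 CPM in sub-SCI (log2 fold change 2.05, SE 0.15, adjusted p = 3.93e-10), Rps2 changed by 2.15 and Rpl3 by 1.13. Rpl8, just under the fold threshold, was the member not called (0.93). Of 14 unfolded protein response genes 8 were higher and 1 lower. Calr, the chaperone calreticulin, was at 371 to 496 CPM in Intact and 1114 to 1448 in sub-SCI (1.54), Sdf2l1 at 17.2 to 25.9 CPM in Intact and 69.1 to 101 in sub-SCI (1.91) and Trib3 at 0.278 to 1.099 CPM in Intact and 2.27 to 3.73 in sub-SCI (2.37). Asns, asparagine synthetase, fell, being at 44.2 to 53.7 CPM in Intact and 17.8 to 29.2 in sub-SCI (-1.12), a call lost without sub-SCI replicate 3. Hsp90b1 did not reach the fold threshold (0.87, SE 0.12, adjusted p = 3.79e-06).

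Genes of cell death rose, 17 of 20 being higher and 0 lower (median 1.82). Without sub-SCI replicate 3, 1 was lower. Ninj1, which ruptures the membrane in lytic death, was at 19.4, 22.4, 23.1 and 24.3 CPM in Intact and 178, 203 and 186 CPM in sub-SCI (log2 fold change 3.08, SE 0.13, adjusted p = 3.97e-13). Ripk3, the necroptosis kinase, was at 1.201, 2.47, 2.73 and 3.95 CPM against 37.9, 46.4 and 67.7 CPM (log2 fold change 4.27, SE 0.29, adjusted p = 1.77e-10), and Bcl2a1, a survival gene of leukocytes, at 1.69 to 3.61 CPM in Intact and 82.03 to 101 in sub-SCI (5.3). Bcl2 and Bcl2l1, survival genes of neurons, were not called (-0.4 and 0.03), nor was Gsdme (-0.97). Many members of this list are expressed in leukocytes, whose markers rose in the same libraries, and the part of those cells was not tested. S100 and annexin genes were higher in 11 of 16 cases, S100a11 at 1.04 to 9.16 CPM in Intact and 220.1 to 424 in sub-SCI (5.67), Anxa1 at 4.47 to 27.5 CPM in Intact and 149 to 326 in sub-SCI (3.62) and Anxa2 at 50.7 to 100.3 CPM in Intact and 420.2 to 780.3 in sub-SCI (2.82), while Anxa6 was not called (0.22, SE 0.12, adjusted p = 0.116). 

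Glycolysis and respiratory chain genes were called in shares near or below those of all genes tested. Of 20 glycolysis and hypoxia genes 4 were higher and 5 lower, or 20% and 25% against 16.6% and 17.5% of all genes (median -0.2). Hk3, the hexokinase of myeloid cells, was at 0.382, 1.28, 1.25 and 1.44 CPM in Intact and 105, 121 and 143 CPM in sub-SCI (log2 fold change 6.78, SE 0.44, adjusted p = 6.69e-11), and Slc16a3, a lactate exporter, at 1.42 to 3.61 CPM in Intact and 27.6 to 53.2 in sub-SCI (3.72). Aldoc, the aldolase of astrocytes, was at 2019, 2024, 2029 and 1990.4 CPM against 842, 617 and 314 CPM (log2 fold change -1.77, SE 0.3, adjusted p = 3.46e-05). Pkm, used by most cells, was at 1193 to 1463 CPM in Intact and 979 to 1043 in sub-SCI and was not called (-0.36, SE 0.18, adjusted p = 0.0782). Of 19 nuclear genes of the respiratory chain 2 (10.5%) were lower, Ndufs1 (-1.1) and Sdha (-1.05), and without Intact replicate 1 there were 0. Atp5f1a and Atp5f1b were not called (-0.43 and -0.41). All 13 mitochondrially encoded genes had negative fold changes (median -0.78) and none was called, Mt-co1 being at 22944 to 28621 CPM in Intact and 14554 to 17566 in sub-SCI (-0.65, SE 0.15, adjusted p = 0.00102) and Mt-co3 at 9173 to 12907 CPM in Intact and 6860.2 to 7814 in sub-SCI (-0.56, SE 0.17, adjusted p = 0.0078). With DESeq2 on all 26 libraries 1 of them was called, and edgeR called 3 without Intact replicate 4, 2 without sub-SCI replicate 2 and 1 without Intact replicate 3. Of 17 antioxidant genes 5 were higher and 1 lower, or 29.4% and 5.9% against 16.6% and 17.5% of all genes. Gpx1, glutathione peroxidase, was at 84.04 to 119 CPM in Intact and 693 to 779.8 in sub-SCI (2.92). Gpx3 was at 39.2 to 67.4 CPM in Intact and 205 to 269 in sub-SCI (2.09), and Prdx1 at 143 to 188 and 368 to 404 (1.25). The gene that fell was the mitochondrial Sod2 (adjusted p = 7.32e-06), at 250.2 to 309 CPM in Intact and 127 to 161 in sub-SCI. Sod2 lay at the fold threshold and lost its call in most alternatives.

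Genes linked to axon regeneration rose in 6 of 16 cases and fell in 0 (median 0.8). Atf3, a transcription factor induced in injured neurons and in macrophages, was at 1.91, 2.703, 1.39 and 2.09 CPM in Intact and 91.2, 74.3 and 79.7 CPM in sub-SCI (log2 fold change 5.33, SE 0.4, adjusted p = 4.95e-10). Sprr1a, a growth cone protein of regenerating axons, had 1 count over the Intact libraries and 168 over the sub-SCI libraries, a ratio of 166 per total count (95% exact interval 29.3 to 6583, counting error only). Gap43, the growth cone protein most used as a marker, was at 125, 116, 111 and 111 CPM against 165, 109 and 91.3 CPM and was not called (0.07, SE 0.26, adjusted p = 0.828). Its groups overlapped. Tubb2b (0.33, SE 0.26, adjusted p = 0.291) and Cd9 (0.99, SE 0.15, adjusted p = 1.01e-05) were not called either. Of 14 immediate early genes 7 were higher, with Junb at 13.6 to 21.9 CPM in Intact and 99.8 to 126 in sub-SCI (2.62), Fosl2 at 1.44 to 2.06 CPM in Intact and 7.06 to 10.3 in sub-SCI (2.27) and Egr1 at 11.3 to 19.1 CPM in Intact and 36.6 to 52.01 in sub-SCI (1.55). Arc, which neurons switch on with synaptic activity, was the member that fell, from 7.31, 9.21, 7.59 and 8.59 CPM to 1.98, 2.46 and 1.12 CPM (log2 fold change -2.14, SE 0.4, adjusted p = 8.31e-05).

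Neurotrophic ligands and receptors were divided as well, 6 of 20 being higher and 6 lower. Each share was 30%, against 16.6% and 17.5% of all genes tested. Lif, a cytokine of the interleukin-6 family, was at 0.382, 0.596, 0.416 and 0.5701 CPM in Intact and 5.03, 5.26 and 10.4 CPM in sub-SCI (log2 fold change 3.79, SE 0.4, adjusted p = 5.34e-08). Igf1 and Hgf, growth factors of macrophages and mesenchymal cells, rose by 3.57 and 3.02. Ntrk2, the receptor of BDNF, fell from 667, 749.7, 694 and 695 CPM to 365, 264 and 197 CPM (log2 fold change -1.35, SE 0.22, adjusted p = 2.3e-05), and Ntrk3 (-1.88) fell as well. Bdnf, Ntf3 and Gdnf were not called, at -0.49, 0.44 and 1.19, nor was Vegfa (-0.78, SE 0.24, adjusted p = 0.00747). 

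Of 38 axon guidance genes 6 rose and 12 fell (median -0.37). The shares were 15.8% and 31.6%, against 16.6% and 17.5% of all genes tested. Slit1, a repellent, fell, being at 49.2 to 70.7 CPM in Intact and 4.54 to 9.01 in sub-SCI (-2.96), and Efnb1, an ephrin of fibroblasts, rose, being at 4.15 to 15.9 CPM in Intact and 63.9 to 152 in sub-SCI (3.17). Sema4d, made by oligodendrocytes, was at 398 to 489.5 CPM in Intact and 131 to 259 in sub-SCI (-1.21), a call lost without sub-SCI replicate 2 or 3. Sema3a, the semaphorin of the fibrous scar, was not called (-0.4, SE 0.46, adjusted p = 0.472), nor was Plxnb3 (-0.17, SE 0.23, adjusted p = 0.532). Among 6 myelin-associated inhibitors and receptors 3 fell, including Omg (-1.99) and Lingo1 (-2.24), and 1 rose, Rtn4rl2, at 0.458 to 0.833 CPM in Intact and 1.48 to 3.01 in sub-SCI (1.84). The rise of Rtn4rl2 was not called without Intact replicate 2, sub-SCI replicate 2 or sub-SCI replicate 3. Rtn4, which encodes Nogo, was at 1045 to 1117 CPM in Intact and 524 to 691 in sub-SCI (-0.87, SE 0.15, adjusted p = 4.09e-05) and did not reach the fold threshold. 

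Wnt pathway genes rose in 8 of 26 cases and fell in 3, or 30.8% and 11.5% against 16.6% and 17.5% of all genes. Without sub-SCI replicate 3 the number that rose was 4. Sfrp4, a secreted inhibitor, was at 1.31, 4.08, 15.5 and 5.78 CPM in Intact and 47.6, 50.9 and 191 CPM in sub-SCI (log2 fold change 3.85, SE 0.8, adjusted p = 0.000261). The genes that fell were Fzd9 (18.2 to 24.9 CPM in Intact and 1.797 to 4.83 in sub-SCI, -2.62), Wif1 (-1.42) and Wnt7a (-1.39), a call lost without sub-SCI replicate 3. Lrp6 and Dkk3 were not called (-0.15 and 0.21). Hox genes, which hold the segmental identity of cord neurons and mesenchyme, were lower in 6 of 21 cases and higher in 0 (median -0.63). The share called lower was 28.6%, against 17.5% of all genes. Hoxb8 was at 82.02, 61.4, 54.2 and 61.3 CPM against 18.9, 25.2 and 8.88 CPM (log2 fold change -1.87, SE 0.47, adjusted p = 0.00147), Hoxb9 changed by -1.88 and Hoxa10, below 1 CPM, by -2.69, while Hoxc8 was at 36.6 to 48.3 CPM in Intact and 20.6 to 39.6 in sub-SCI and was not called (-0.44, SE 0.22, adjusted p = 0.0979). With sub-SCI replicate 3 left out, 3 Hox genes were lower, and Hoxb8 was no longer among them. The Hoxa10 call was lost without any 1 library other than Intact replicate 3 or 4.

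Cilia genes, carried in the cord by ependymal cells, were lower in 8 of 19 cases and higher in 0 (median -1.15), with a share of 0.0253% to 0.0276% in Intact and 0.009% to 0.014% in sub-SCI. The dynein heavy chain Dnah9 was at 31.1, 26.2, 32.4 and 29.5 CPM in Intact and 7.21, 9.895 and 4.75 CPM in sub-SCI (log2 fold change -2.03, SE 0.22, adjusted p = 1.05e-07), Dnah12 at 90.4 to 107 CPM in Intact and 24.1 to 42.1 in sub-SCI (-1.65) and Hydin at 19.3 to 24.5 CPM in Intact and 1.97 to 7.503 in sub-SCI (-2.18). Ccdc39 was at 39.7 to 41.7 CPM in Intact and 22.2 to 27.9 in sub-SCI and did not reach the fold threshold (-0.75, SE 0.13, adjusted p = 2.87e-05). In each of these genes the groups were apart. Without sub-SCI replicate 3, 4 cilia genes were called. Of 11 Schwann cell genes 3 rose, 27.3% against 16.6% of all genes, and the list median was -0.24. The genes of developing or injured Schwann cells Ngfr, at 7.45 to 13.1 CPM in Intact and 53.2 to 107 in sub-SCI (2.84), and Egr2, at 0.0546, 3.21, 2.41 and 1.9 CPM against 8.84, 10 and 13.1 CPM (2.47, SE 0.62, adjusted p = 0.00161), were among them, and macrophages express Egr2 too. The Egr2 call was lost in both fits to the 2 groups alone. The myelin gene Pmp22 was not called (-0.24). Of 8 muscle genes 1 was lower, Actn3, at 2.89, 4.21, 2.78 and 15.6 CPM against 2.03, 1.305 and 1.02 CPM (-2.13), its highest value by far being Intact replicate 4, and of 7 ganglion genes 2 were lower, Trpv1 (-1.24) and Isl2 (-1.91). The shares called lower were 12.5% of muscle and 28.6% of ganglion genes, against 17.5% of all genes. The Isl2 call was lost without any 1 library other than sub-SCI replicate 1.

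Which of the day 7 changes had moved a week later was asked by comparing sub-SCI with +PBS-1w, 3 libraries of injured cord. In this comparison time after injury, the vehicle injection and any cyclosporin A cannot be told apart. Of 17990 genes 19 (0.106%) were higher in sub-SCI and 9 (0.05%) lower, with a median over all genes of -0.01. The comparison shares its 3 sub-SCI libraries with that against Intact. The numbers depended on the method and on single libraries. DESeq2 on all 26 libraries called 122 higher and 149 lower, and edgeR fitted to these 2 groups alone called 0 in each direction, with 1422 higher and 1335 lower genes at an unadjusted p under 0.05. Leaving out sub-SCI replicate 3 or +PBS-1w replicate 2 also left 0 in each direction by edgeR, with 931 higher and 1098 lower genes at an unadjusted p under 0.05 without the former and 1108 and 1280 without the latter.

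Genes higher at day 7 than a week later included heme oxygenase and the transferrin receptor. Hmox1 was at 522, 534 and 743 CPM in sub-SCI and 285, 143 and 163 CPM in +PBS-1w (log2 fold change 1.61, SE 0.27, adjusted p = 0.00584), both far above the 13.7 to 19.4 CPM of Intact. Tfrc, the transferrin receptor, was at 179, 269.8 and 239 CPM against 139.7, 106 and 83.5 CPM (log2 fold change 1.06, SE 0.17, adjusted p = 0.00473), so that +PBS-1w lay below Intact, at 169 to 192 CPM. Calcb, the beta form of calcitonin gene-related peptide, was at 37.2, 37.2 and 40.3 CPM against 6.18, 5.04 and 4.48 CPM (log2 fold change 2.87, SE 0.42, adjusted p = 0.00242). Sub-SCI libraries were higher than every +PBS-1w library in all 3 genes, and Calcb in +PBS-1w was within or below the Intact range of 5.66 to 13.01 CPM. Of the cell division list, Ccnb1 (cyclin B1) was called, at 19.3, 22.2 and 39.8 CPM against 12.6, 7.12 and 8.85 CPM (log2 fold change 1.51, SE 0.28, adjusted p = 0.009), and the list median in this comparison was 1.33. The other genes with a name included Dsn1 (1.25), a kinetochore protein, Stil (1.3), needed for centriole duplication, and Ckap4 (1.22), a membrane protein of the endoplasmic reticulum. The rest were Slc35c2 (1.43), the disulfide isomerase Pdia5 (1.48), Pkp1 (1.97), Deup1 (3.04), which builds the centrioles of multiciliated cells, and Foxr1 (3.3). Pkp1 was at 22.4, 32.04 and 86.7 CPM in sub-SCI, highest in replicate 3, and 9.51 to 13.9 in +PBS-1w. Deup1 was at 2.703, 2.94 and 6.61 CPM against 0.336 to 0.6. Foxr1 was at 3.69, 0.544 and 2.75 CPM against 0.187 to 0.268, with sub-SCI replicate 2 within the Intact range of 0.139 to 0.57 CPM. The ciliated ependymal list had a median of -1.12 in this comparison, with 0 of its members called lower and a share of 0.009% to 0.014% in sub-SCI and 0.0265% to 0.0288% in +PBS-1w.

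Genes lower at day 7 than a week later included Ppp1r1b, the phosphatase regulator DARPP-32, at 22.7, 21.1 and 11.1 CPM in sub-SCI and 82.3, 60.95 and 34.2 CPM in +PBS-1w (log2 fold change -1.69, SE 0.31, adjusted p = 0.0089). C4a was higher at day 7 than in Intact and higher again a week later, at 0.327, 0.733, 0.786 and 0.912 CPM in Intact, 2.38, 2.21 and 2.204 CPM in sub-SCI and 5.77, 10.3 and 9.53 CPM in +PBS-1w (log2 fold change -1.91, SE 0.29, adjusted p = 0.00335). Negr1 (-1.44), Mapk4 (-1.1) and the cilia-associated Efcab1 (-1.16) were lower too. The 13 named genes of this comparison outside the lists were named after their values were seen. List medians in this comparison were -0.55 for neurons, -0.01 for mature oligodendrocytes and 0.38 for phagocytes. By edgeR's test 0 neuron and 0 oligodendrocyte genes were called, and of the phagocyte genes 1, Hmox1, was higher and 0 lower. Of all genes 0.106% were called higher and 0.05% lower, so lists of this size would hold few or none in any case. A gene not called here is not shown to be the same at both times.

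**Figure D5:**
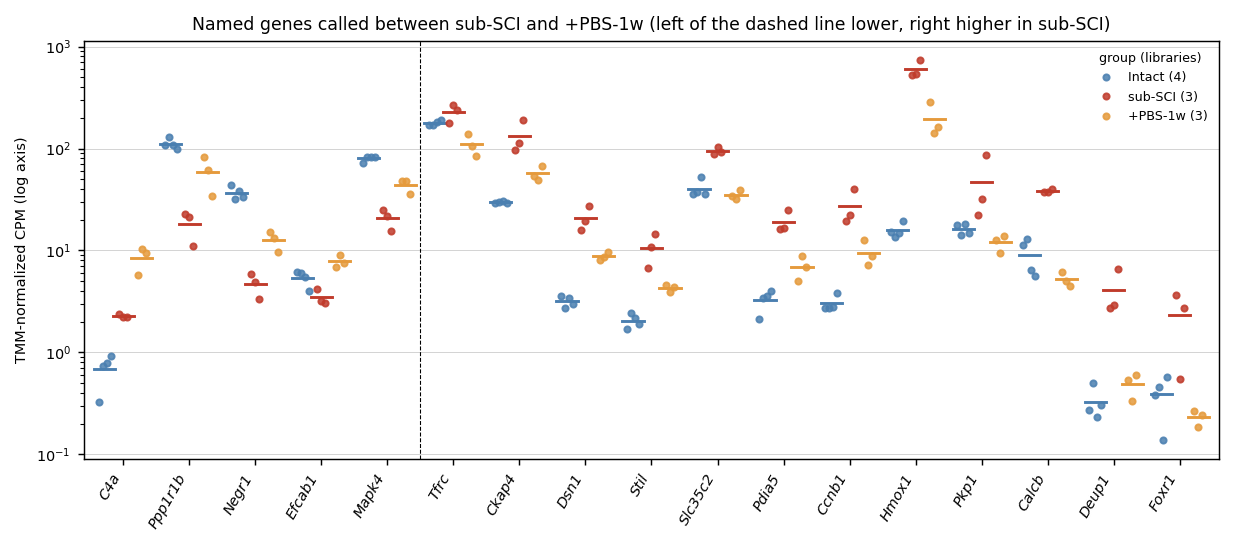
TMM-normalized CPM (log axis) in each library of Intact (blue), sub-SCI (red) and +PBS-1w (orange) for 17 named genes among the 28 called between sub-SCI and +PBS-1w, with lines at the group means. Genes left of the dashed line were lower in sub-SCI and those right of it higher, as Hmox1 at 522 to 743 CPM in sub-SCI and 143 to 285 in +PBS-1w.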

How the data were processed

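Total RNA of 5 mm cord segments was sequenced in 26 libraries. The deposited values are raw counts per gene, made by the authors by trimming with Trim Galore 0.5.0, removing reads that mapped to the human genome (GRCh38), aligning the rest to rat Rnor6 with HISAT2 2.1.0, keeping proper pairs with SAMtools 1.9 and counting with featureCounts 1.6.4. The annotation release and the strand setting are not given in the sources used here, so reads of overlapping or antisense genes cannot be told apart. All 26 per-sample files equaled the columns of the joint table, in which 6513 of 32883 genes had no count.

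Here, genes were kept by filterByExpr over all 26 libraries and counts were TMM-normalized. All 8 groups were fitted with edgeR 4.0.16 (R 4.3.3) by the quasi-likelihood test without covariates and with Benjamini-Hochberg adjustment over all genes tested. A prior count of 2 was used only for log2 CPM values, and the fold changes kept edgeR's default prior count. The study itself used DESeq2, which was run as an alternative (1.42.0). SE was derived from the fold change and its F statistic, CPM are on TMM-scaled library sizes, and shares of counts are on total counts. P values set each difference against the spread between libraries within groups, estimated over all 26 libraries. The fitting code was run on simulated counts with known changes and the same spread for every gene and group. That run does not show how the calls behave at the spread of these libraries. The 63 gene lists hold 1045 distinct genes, of which 994 were tested, and members and lists were chosen with earlier results of these data known. Genes were named by rule: the 10 largest changes in each direction above 10 CPM in the higher group, for each list the 2 called members with the largest fold changes, the 2 with the highest mean CPM and up to 3 called against the list's direction, members called against +PBS-1w, and the GABA-A receptor genes followed by the study with Slc12a5. Results of some genes the rule gives are not reported here. Other list members were named after their values were seen. Intact and sub-SCI share replicate numbers. Deviations of same-numbered libraries correlated at 0.225, -0.052 and 0.132, and those of different-numbered libraries at -0.243 to 0.134. These values do not settle whether the numbers pair libraries, and the numbers were not taken as pairs. Alternatives were other tests, size factors, filters, a replicate block, a term for or omission of replicate 1, and leaving out each library. Promoter windows were matched by symbol, and a match of a motif on either strand was counted once per window.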

Additional observations from a re-analysis of the deposited data

Results flagged for a closer look

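In groups of 4, 358 sets of Intact values were tested with Dixon's ratio, of which chance flags about 1 in 20, and 28 (7.8%) had 1 library apart from the others. The highest Intact library stood apart, in CPM, for Acta2 (13.4), Actn3 (15.6), Atp6v0d2 (0.836), Ccnb1 (3.84), Col2a1 (61.6), Cx3cl1 (155), Eng (69.2), Eno2 (32.9), Gfap (5415), Gsdme (11.9), Il1a (0.321), Kcnn4 (6.84), Mki67 (22.7), Mmp9 (14.5), Slc32a1 (252), Slc35c2 (52.5), Slit1 (70.7) and Sprr1a (0.0546). The lowest stood apart for Apoe (2433), Ctsb (544), Mapk4 (71.9), Pdgfrb (34.1) and Penk (98.1). Among shares of counts, the highest stood apart for the endothelial (0.0955%), skeletal muscle (0.0423%) and respiratory chain (0.527%) lists, and the lowest for the TGF-beta (0.0477%) and S100 and annexin (0.0885%) lists.

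The change from Intact differed between sub-SCI and +PBS-1w, by the direct test of sub-SCI against +PBS-1w, for 19 genes higher and 9 lower in sub-SCI. Named genes among them were higher by a log2 fold change of 3.30 (Foxr1), 3.04 (Deup1), 2.87 (Calcb), 1.97 (Pkp1), 1.61 (Hmox1), 1.51 (Ccnb1), 1.48 (Pdia5), 1.43 (Slc35c2), 1.30 (Stil), 1.25 (Dsn1), 1.22 (Ckap4) and 1.06 (Tfrc), or changed by -1.91 (C4a), -1.69 (Ppp1r1b), -1.44 (Negr1), -1.16 (Efcab1) and -1.10 (Mapk4).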

How the results depend on the processing

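Against Intact, the counts of genes called stayed within 1.5 times the 2981 higher and 3151 lower genes in all 16 alternatives, from 2349 to 3165 higher and 2561 to 3243 lower, with 2599 to 3036 and 2610 to 3066 when 1 library was left out, and no called gene changed sign. Of 207 named genes that were called, 181 were called in every alternative that tested them, and Sod2, at the fold threshold, lost its call in most. With the replicate number as a block the counts were 2993 and 3130, and against +PBS-1w 16 higher and 4 lower. Whether the numbers pair the libraries was not settled. The 19 higher and 9 lower genes against +PBS-1w were 122 and 149 with DESeq2 on all 26 libraries, 140 and 104 with DESeq2 on the 2 groups, 0 and 0 with edgeR on the 2 groups, 33 and 19 with a term for replicate 1, 73 and 33 with all libraries labelled replicate 1 left out, and 4 lower with no filter on low counts, and leaving out 1 library gave 0 to 38 higher and 0 to 68 lower. The cause was not tested.

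Values that changed sign belonged to genes that were not called and to list medians. Leaving out 1 library moved the log2 fold change from -0.33 to 0.01 for Adamts4, -0.03 to 0.12 for Bcl2l1, -0.33 to 0.40 for C3, -0.02 to 0.32 for Ccne1, -0.32 to 0.12 for Cd55, -0.21 to 0.41 for Dkk3, -0.17 to 0.00 for Ebp, -0.46 to 0.30 for Gabrr1, -0.63 to 0.05 for Gabrr3, -0.21 to 0.24 for Gap43, -0.05 to 0.55 for Gfap, -0.46 to 0.73 for Hba-a2, -0.54 to 0.03 for Plxnb3, -0.43 to 0.19 for Pmp22, -0.13 to 1.32 for S100a8, -0.11 to 1.34 for S100a9, -0.16 to 0.21 for Sall1, -0.31 to 0.06 for Selplg and -0.08 to 0.00 for Wnk1. With the replicate block Bcl2l1 was at -0.02, C3 at 0.04 and Hba-a2 at 0.41. With all libraries labelled replicate 1 left out Gap43 was at -0.12, Gfap at -0.05, S100a8 at -0.06, Sall1 at -0.18 and Selplg at 0.08. C3 was at 0.00 with DESeq2 on all 26 libraries, 0.01 with DESeq2 and with edgeR on the 2 groups, 0.03 with no filter on low counts and 0.10 with the term for replicate 1. The median of the oligodendrocyte precursor list was -0.20 with replicate 1 left out throughout and -0.24 to 0.36 without 1 library, and that of the B and plasma cell list was 0.66 where only genes with at least 10 counts in every library were kept. Medians near 0 also changed sign for the neutrophil (-0.30 to 1.47), Schwann cell (-0.43 to 0.19), red blood cell (-0.39 to 1.18) and neurotrophic (-0.44 to 0.02) lists. Low levels limit the T cell, B cell and chemokine lists, many of whose members were near 0 in Intact.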
